A study of Macaca mulatta with 24 samples.

Results

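The red cell membrane and skeleton genes described here are 9 genes, SPTB, ANK1, EPB41, EPB42, SLC4A1, RHAG, AQP1, TMOD1 and GYPC. They were chosen by symbol, with earlier results of these data known. Every non-control probe of the array carrying one of these names was taken, whatever its signal. This gave 18 of 43603 probes, for 8 of the 9 genes, out of 14409 genes named on the array. GYPC was not analysed here, since no probe carried that name. Of the 18 probes, 15 were tested, having signal well above background on 4 or more arrays out of 24, and they stand for 7 genes. SPTB, with its 1 probe, was not among them.

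Blood of rhesus macaques that received a total body dose of 4 Gy was profiled on 24 Agilent rhesus arrays with a single dye, Cy3. Blood drawn before irradiation is on 7 arrays (4 males, 3 females). Day 3 has 4 arrays (3 males, 1 female), day 5 has 6 (4 males, 2 females) and day 7 has 7 (4 males, 3 females). The animals were 5 to 10 years old, and a replicate number marks the same animal at each time. The labels place the first blood at day 0 and name X-rays, while the methods place it 3 days before exposure and name a cobalt-60 gamma source. RNA of every group was depleted of globin messages, and the animals were bled repeatedly. No array of an unirradiated animal at the later days was analysed here, so irradiation, elapsed time and blood sampling cannot be told apart.

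Mature red cells keep their shape and survive deformation because a lattice of spectrin and short actin filaments is tied to the lipid bilayer. Ankyrin links this lattice to the anion exchanger band 3, and protein 4.1 links it to actin at the junctions. The messages for these proteins are made in erythroblasts in the marrow, and in blood they persist in the young red cells called reticulocytes until their RNA is lost.

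Between 48.3 and 61.2% of the probes on an array were well above background, and the median processed signal ran from 16.8, on the day 7 array of replicate 2, to 104. The arrays lay on 6 slides and were scanned in 2 sessions. Session 1 held 6 pre-irradiation and 6 day 7 arrays, and session 2 held the day 3 and day 5 arrays with 1 pre-irradiation and 1 day 7 array, both of replicate 5. Of 12 listed markers of erythroid cells 11 could be tested, and their mean log2 signal was 12.42 to 13.89 over the pre-irradiation arrays. The range was 10.89 to 12.08 on the day 3 arrays, 9.07 to 9.95 on those of day 5 and 8.43 to 11.79 on those of day 7. In whole blood, fewer cells of a type and less RNA per cell cannot be told apart.

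Levels are given as log2 of the processed signal after scaling to the median array, for the brightest tested probe of each gene. They are compared within a probe and never between genes. The test was a limma fit of the groups compared, and a gene counts as changed when its p, adjusted by Benjamini-Hochberg over all probes tested, is under 0.005. Of the 7 genes tested, day 3 had 4 called lower, day 5 had 5 and day 7 had 5, and none was called higher. The share of all tested probes called lower was 8.03% for day 3, 9.59% for day 5 and 7.28% for day 7. Because the genes were chosen with earlier results known, setting the counts beside this share is a description and not a test. The median log2 change of the 7 genes was −3.92, −6.10 and −4.77 on these days. Over all probes it was 0.02 on each day, a value that the scaling to the median array largely fixes. With normexp background correction, which starts from the raw signals and adds an offset of 50, the medians of the 7 genes were −1.75, −1.91 and −2.02. The offset by itself makes changes that end in dim signal smaller. SLC4A1, EPB42, TMOD1 and AQP1 fell on all 3 days. SLC4A1 passed the filter of 4 arrays only through the pre-irradiation arrays. It could hardly be called other than lower, so its calls add no support to the counts, in which it is included. EPB41 fell at days 5 and 7 by smaller amounts, and RHAG and ANK1 did not pass the test on any day.

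**Figure D1:**
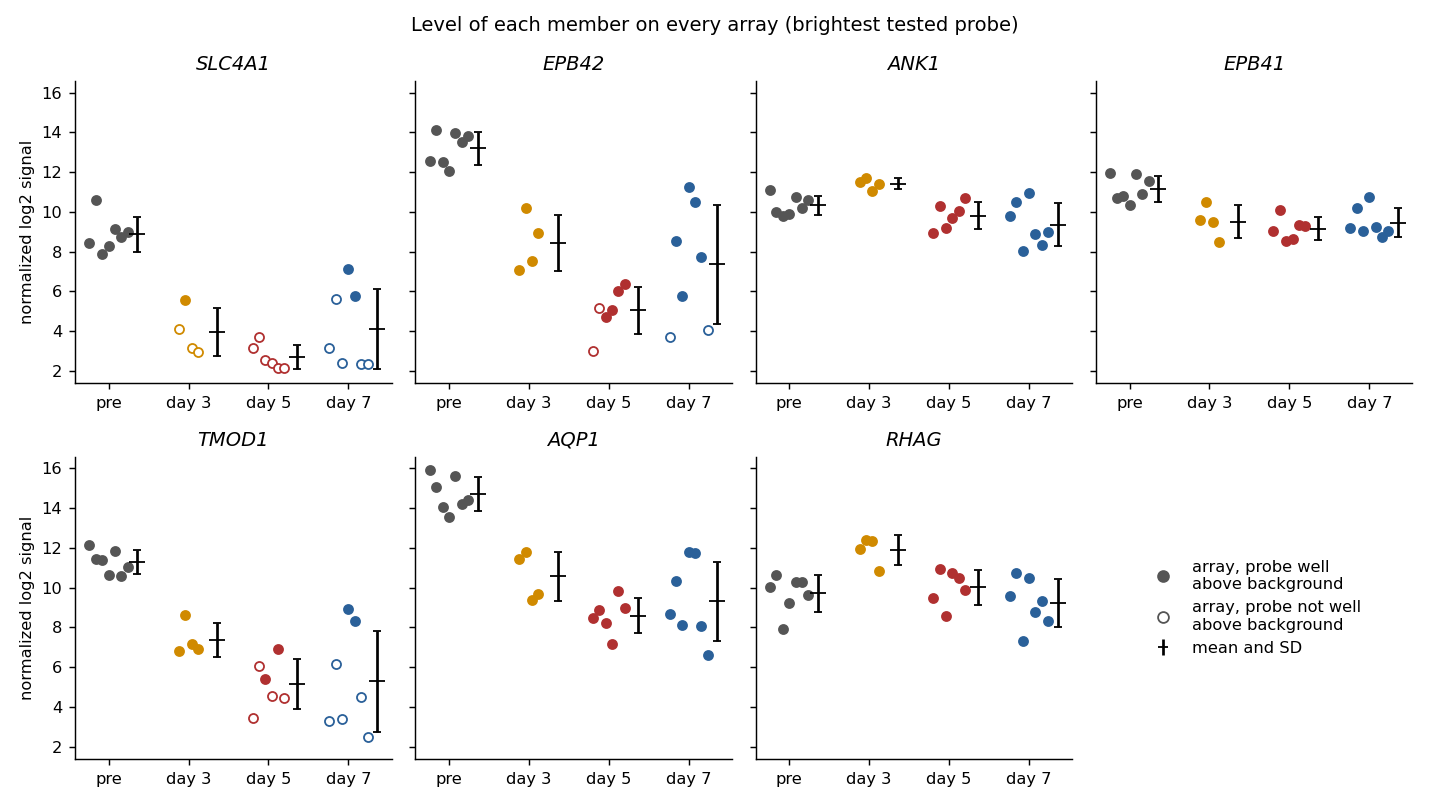
Normalized log2 signal (vertical axis) of the 7 tested genes on every array, before irradiation and at days 3, 5 and 7. Filled points are arrays on which the probe was well above background, open points those on which it was not, and the bar gives the mean and SD. SLC4A1, EPB42, TMOD1 and AQP1 lie below all 7 pre-irradiation arrays on every later array, while all 4 day 3 arrays of RHAG lie above them.

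SLC4A1 encodes band 3, the chloride-bicarbonate exchanger and the main anchor of the skeleton in the bilayer. Its probe (A_01_P1710016, 60 bases at chr16:54346026-54346633, minus strand, rheMac2) is shown because the SLC4A1 result rests on this single sequence, which the coordinates place across a gap in the genome:
SLC4A1: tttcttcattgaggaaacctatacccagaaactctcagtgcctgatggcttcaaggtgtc
Before irradiation the log2 signal was 7.91 at its lowest, 8.73 at its median and 10.61 at its highest. At day 3 it was 4.12, 5.59, 3.13 and 2.93 in replicates 1, 2, 4 and 7. The lowest, median and highest levels were 2.15, 2.48 and 3.73 at day 5 and 2.35, 3.13 and 7.11 at day 7. No later array reached the lowest pre-irradiation array, and the probe was well above background on 1 of 4, 0 of 6 and 2 of 7 arrays of these days against 7 of 7 before. SLC4A1 fell at day 3 (log2 change −4.93, SE 0.558, limma adjusted p = 0.000154) and at day 7 (−4.77, SE 0.743, limma adjusted p = 0.00033). At day 5 it was at least 18.4-fold lower (limma adjusted p = 1.4e-07), a bound set by the faintest signals well above background on those arrays. The changes at days 3 and 7 are also set largely by dim signal. With normexp background correction SLC4A1 missed the threshold on all 3 days (log2 changes −1.75, −1.32 and −2.02, limma adjusted p = 0.0332, 0.097 and 0.0185).

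EPB42 encodes protein 4.2, which binds band 3 and ankyrin and steadies their contact. Its levels before irradiation ran from 12.05 through a median of 13.52 to 14.11. At day 3 they were 7.06, 10.18, 7.55 and 8.95 in replicates 1, 2, 4 and 7. The lowest, median and highest levels were 3.00, 5.11 and 6.35 at day 5 and 3.69, 7.73 and 11.24 at day 7. The groups did not overlap with the pre-irradiation arrays on any day, which was so for 12.4% of probes in the lower direction at day 3, 8.64% at day 5 and 5.91% at day 7. EPB42 fell 27.5-fold at day 3 (log2 change −4.78, SE 0.589, limma adjusted p = 0.000252), 287-fold at day 5 (−8.16, SE 0.507, limma adjusted p = 1.04e-07) and 57.8-fold at day 7 (−5.85, SE 1.05, limma adjusted p = 0.000934). The probe was not well above background on 2 of 6 arrays at day 5 and 2 of 7 at day 7, so these folds rest in part on dim signal. With normexp background correction the log2 changes were −4.03, −4.93 and −4.71 (limma adjusted p = 0.000949, 1.84e-05 and 0.000381).

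ANK1 encodes ankyrin, the link between band 3 and spectrin. Before irradiation its log2 signal ran from 9.78 through 10.21 to 11.08. The day 3 arrays stood at 11.50, 11.73, 11.04 and 11.40 in replicates 1, 2, 4 and 7. At day 5 the lowest, median and highest were 8.92, 9.86 and 10.68, and at day 7 they were 8.02, 8.97 and 10.97. All day 3 arrays except that of replicate 4 lay above every pre-irradiation array, and the later days overlapped with them. The log2 change was 1.08 at day 3 (SE 0.263, limma adjusted p = 0.00832), −0.53 at day 5 (SE 0.304, adjusted p = 0.188) and −0.97 at day 7 (SE 0.418, adjusted p = 0.0961). Within animals the day 3 level was higher in 4 of 4, by 0.42 to 1.73. ANK1 has 6 probes, of which 2 were well above background on no array. Of the other 3 tested probes, the one well above background on all day 3 and pre-irradiation arrays gave a log2 change of 1.24 at day 3. The remaining pair were well above background on 1 of 7 and 0 of 7 arrays before irradiation, so their size of change is not given. None of the 3 passed the threshold, and the 4 tested probes correlated with r from 0.541 to 0.941 over the 24 arrays.

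SPTB encodes beta spectrin of the red cell. Its probe (A_01_P1686481, chr7:127748217-127748563, minus strand, rheMac2) is shown because it gave almost no signal in blood:
SPTB: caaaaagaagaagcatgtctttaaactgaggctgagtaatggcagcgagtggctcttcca
It was well above background on 1 of 24 arrays, that of replicate 6 at day 5, at 4.82. Its log2 signal ran from 3.43 to 3.94 before irradiation, and no change can be read from it at this signal.

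EPB41 encodes protein 4.1R, which holds spectrin to actin and to glycophorin C. Its brightest probe (A_01_P1764926, chr1:31852884-31856163, plus strand, rheMac2) is shown since the call of EPB41 at day 3 depended on which of its 2 probes was read:
EPB41: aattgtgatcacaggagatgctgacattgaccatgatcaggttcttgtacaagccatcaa
Before irradiation the log2 signal was 10.35 at its lowest, 10.89 at its median and 11.96 at its highest. At day 3 the values were 9.59, 10.48, 9.51 and 8.50 in replicates 1, 2, 4 and 7. The lowest, median and highest were 8.55, 9.16 and 10.11 at day 5 and 8.75, 9.21 and 10.74 at day 7. The day 3 array of replicate 2 and the day 7 array of replicate 4 lay within the pre-irradiation range, and all 6 day 5 arrays lay below it. EPB41 fell 4.02-fold at day 5 (log2 change −2.01, SE 0.317, limma adjusted p = 0.000334) and 3.26-fold at day 7 (−1.71, SE 0.343, limma adjusted p = 0.00211). At day 3 the change was −1.65 (SE 0.400, limma adjusted p = 0.00834) in this probe and −2.30 (SE 0.484, limma adjusted p = 0.00398) in the other. The day 5 call was lost with the session as a fixed block (limma adjusted p = 0.0145), with normexp background correction (0.0101) and with the slide as a fixed block in one fit of all groups (0.0788). The day 7 call held in 13 of the 22 other settings tried. It was lost with the animal as a block (limma adjusted p = 0.00995), with the slide as a fixed block (0.00568), within session 1 (0.0108), with normexp background correction (0.0296) and when replicate 1, 3, 5, 6 or 7 was left out (limma adjusted p = 0.0123, 0.00762, 0.0108, 0.00686 and 0.0125), while the second probe had a day 7 change of −2.50 (SE 0.402, limma adjusted p = 0.000421).

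TMOD1 encodes tropomodulin, the cap on the slow-growing end of the short actin filaments. Its levels before irradiation ran from 10.58 through 11.38 to 12.13. At day 3 they were 6.82, 8.62, 7.14 and 6.92 in replicates 1, 2, 4 and 7. The lowest, median and highest levels were 3.43, 4.98 and 6.93 at day 5 and 2.48, 4.50 and 8.90 at day 7. Every later array lay below every pre-irradiation array. TMOD1 fell 15.1-fold at day 3 (log2 change −3.92, SE 0.388, limma adjusted p = 6.75e-05), 71.5-fold at day 5 (−6.16, SE 0.479, adjusted p = 9.23e-07) and 64.4-fold at day 7 (−6.01, SE 0.886, adjusted p = 0.000215). The probe was well above background on 2 of 6 arrays at day 5 and 2 of 7 at day 7, so the later folds are largely set by dim signal. The second probe was also called lower on each day, with a log2 change of −3.69 at day 3, and was well above background on 1 of 6 and 2 of 7 arrays at days 5 and 7. With normexp background correction the changes of the brightest probe were −2.88, −3.05 and −3.73 (limma adjusted p = 0.00191, 0.0013 and 0.000421).

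AQP1 encodes the water channel of the red cell membrane, which carries the Colton blood group. Its levels before irradiation ran from 13.55 through 14.44 to 15.90. At day 3 they were 11.44, 11.78, 9.38 and 9.67 in replicates 1, 2, 4 and 7. The lowest, median and highest levels were 7.16, 8.69 and 9.81 at day 5 and 6.59, 8.66 and 11.78 at day 7. The probe was well above background on all 24 arrays, and no later array overlapped with the pre-irradiation range. AQP1 fell 17.5-fold at day 3 (log2 change −4.13, SE 0.553, limma adjusted p = 0.000392), 68.7-fold at day 5 (−6.10, SE 0.442, adjusted p = 4.68e-07) and 41.5-fold at day 7 (−5.37, SE 0.738, adjusted p = 0.00012). Its second probe was called lower on each day as well, but with signal well above background on 1 of 4, 1 of 6 and 4 of 7 arrays of these days, so its size of change is not given. With normexp background correction the day 5 change of the brightest probe was −5.30 (limma adjusted p = 1.79e-05).

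RHAG encodes the Rh-associated glycoprotein, which the Rh proteins need to reach the cell surface and which passes ammonium. Its 3 probes are shown because they read the message at neighbouring places and gave nearly one value, with the bases shared by the last pair in capitals. They lie at chr4:49317866-49317925, chr4:49316823-49317870 and chr4:49316803-49316862 (minus strand, rheMac2):
A_01_P1685001: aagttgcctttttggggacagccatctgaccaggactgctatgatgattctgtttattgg
A_01_P1670331: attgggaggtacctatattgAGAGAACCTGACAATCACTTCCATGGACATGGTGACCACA
A_01_P015388: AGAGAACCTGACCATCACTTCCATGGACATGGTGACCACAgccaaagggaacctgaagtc
The last pair share 40 bases with 1 mismatch, A33C, counted from 1 at the 5′ end of A_01_P1670331, so they are not independent readings. Over the 24 arrays the 3 probes correlated with r from 0.994 to 0.998.

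Before irradiation the log2 signal of RHAG, in the first of these probes, ran from 7.90 through 10.02 to 10.63. At day 3 it was 11.96, 12.41, 12.36 and 10.81 in replicates 1, 2, 4 and 7. The lowest, median and highest were 8.58, 10.17 and 10.95 at day 5 and 7.30, 9.31 and 10.72 at day 7. All 4 day 3 arrays stood above all pre-irradiation arrays, which was so for 8.63% of probes in the higher direction, and the later days overlapped with them. The day 3 value was 4.51-fold above pre-irradiation (log2 change 2.17, SE 0.487, 95% confidence interval 1.11 to 3.24), and its limma adjusted p of 0.00557 missed the threshold. The adjusted p was under 0.005 in 4 of the 21 other settings tried, over which limma gave values from 0.00326 in the authors' normalized values to 0.531 with the slide as a fixed block. The changes at day 5 (0.30, SE 0.461, limma adjusted p = 0.641) and day 7 (−0.50, SE 0.523, limma adjusted p = 0.504) were within the spread between arrays. Within animals RHAG was higher at day 3 in 4 of 4, by 1.18 to 3.14, and higher in 5 of 6 at day 5 and 2 of 7 at day 7.

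**Figure D2:**
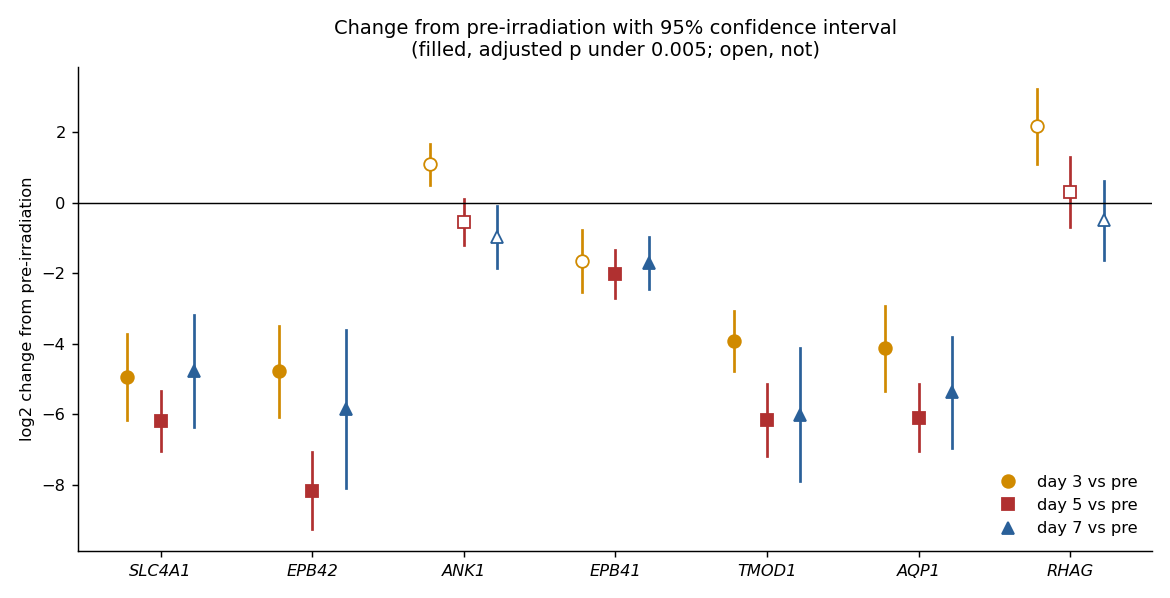
Log2 change from pre-irradiation (vertical axis) of the 7 tested genes at days 3, 5 and 7, with the 95% confidence interval of the limma fit. Filled marks passed an adjusted p under 0.005 and open marks did not. The changes of SLC4A1, EPB42, TMOD1 and AQP1 lie between −3.92 and −8.16, and the intervals of RHAG and ANK1 at day 3 lie above 0.

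**Figure D3:**
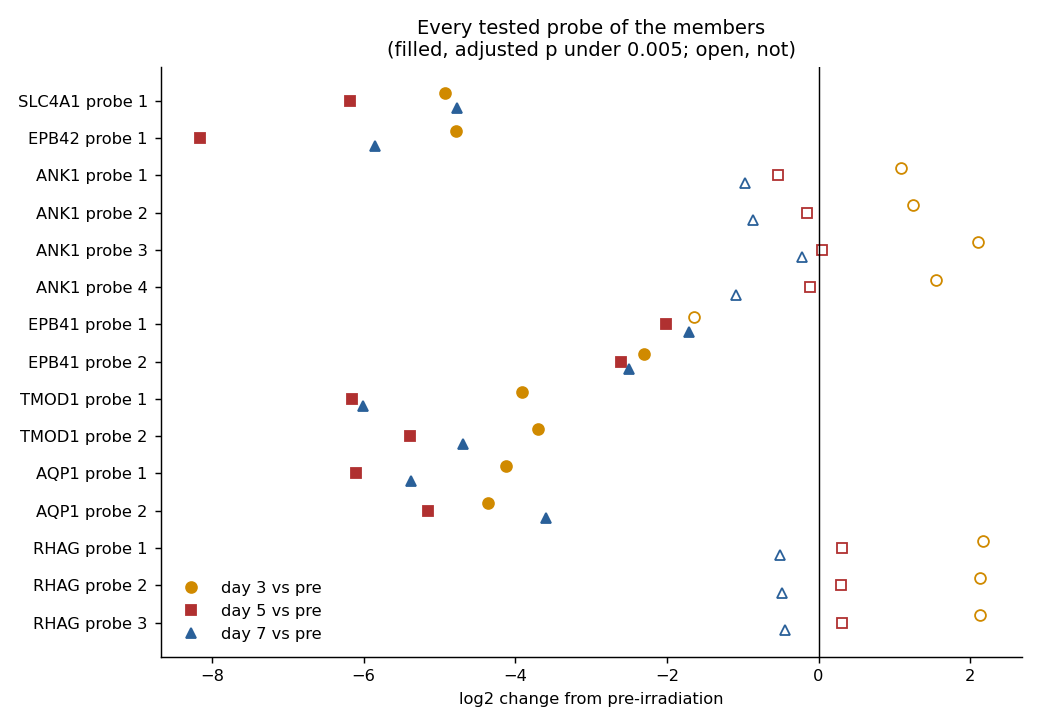
Log2 change from pre-irradiation (horizontal axis) of each of the 15 tested probes, probe 1 being the brightest of its gene, at days 3, 5 and 7. Filled marks passed an adjusted p under 0.005. Probes of a gene lie on the same side of 0 at day 3, and both probes of TMOD1 and AQP1 are filled on every day.

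The day 3 and day 5 arrays share a scan session with only 1 pre-irradiation array, that of replicate 5, and this limits every comparison of those days with pre-irradiation. Within that session the day 3 mean minus this array was −5.22 in SLC4A1, −5.54 in EPB42, −4.45 in TMOD1, −5.06 in AQP1 and −2.40 in EPB41 on the log2 scale, and 1.60 in RHAG and 0.65 in ANK1. At day 5 the same differences were −8.93 for EPB42, −6.69 for TMOD1, −7.03 for AQP1, −2.76 for EPB41, −0.27 for RHAG and −0.97 for ANK1, and SLC4A1 was well above background on no day 5 array. With the session as a fixed block, 0 of the 7 genes passed the limma test at day 3, where it called 37 probes over the whole array. At an unadjusted p under 0.05 there were 5 of the 7 genes, against 21.5% of all probes. At day 5 this fit called 383 probes, and 4 of the 7 genes passed, with EPB41 dropping out (limma adjusted p = 0.0145). With the slide as a fixed block 0 of the genes and 0 probes over the array passed at day 3, with 5 of the 7 genes at an unadjusted p under 0.05 against 19.9% of all probes. The log2 changes were then −6.13 in SLC4A1, −5.73 in EPB42, −4.79 in TMOD1 and −6.10 in AQP1. At day 5 the slide could be a fixed block only in one fit of all 4 groups, an alternative added after seeing the data, which called 42 probes and 0 of the 7 genes. There the limma adjusted p was 0.00777 in SLC4A1 and AQP1, 0.0452 in EPB42, 0.0454 in TMOD1 and 0.0788 in EPB41. The differences given here for SLC4A1, and for TMOD1 at days 5 and 7, rest largely on dim signal. At day 7 session 1 alone holds 6 arrays on each side, and there SLC4A1, EPB42, TMOD1 and AQP1 were lower on 6 of 6 arrays than on all pre-irradiation arrays, with mean differences of −5.00, −6.25, −6.42 and −5.62. This was so for 6.76% of probes. EPB41 was lower there on 5 of 6 arrays (mean difference −1.54), and its limma adjusted p of 0.0108 missed the threshold.

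Compared directly, no gene differed between days at an adjusted p under 0.005. Between days 3 and 5, limma called 0 of 7 genes, 6 at an unadjusted p under 0.05, where 10.1% of all probes stood, and 0.0184% of probes. In EPB42 (limma adjusted p = 0.0954) and in ANK1 (−1.62, SE 0.337, limma adjusted p = 0.095) all 6 day 5 arrays lay below all 4 day 3 arrays, which was so for 2.1% of probes. In EPB42 2 of the 6 were not well above background, while in ANK1 all were. In this comparison 3 of the 7 genes had an unadjusted p under 0.05 with normexp background correction. Between days 3 and 7 it called 0 of 7, 2 at an unadjusted p under 0.05, where 32.7% of probes stood, and 1.26% of probes. These 2 were RHAG (−2.68, SE 0.597, limma adjusted p = 0.0137) and ANK1 (−2.06, SE 0.511, limma adjusted p = 0.0208), each with all 7 day 7 arrays below all 4 day 3 arrays, which was so for 5.96% of probes. In a single limma fit of all 4 groups both passed, with adjusted p of 0.00249 for RHAG and 0.00239 for ANK1. All day 3 arrays were scanned in session 2 and 6 of the 7 day 7 arrays in session 1. Day and session can therefore hardly be told apart in this comparison. Between days 5 and 7 limma called 0 of 7, 0 at an unadjusted p under 0.05, where 20.8% of probes stood, and 0.00369% of probes, and the interval of the AQP1 difference (0.73 higher at day 7) ran from −0.97 to 2.43.

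In some of the genes the animals stood far apart at day 7. The SD of AQP1, whose probe was well above background on every array, was 1.99 at day 7, against 0.86 before irradiation, 1.22 at day 3 and 0.89 at day 5. The brightest probes of ANK1, RHAG and EPB41 were also well above background on every array. Their SDs at day 7 and before irradiation were 1.10 and 0.49, 1.21 and 0.93, and 0.73 and 0.64. These spreads were not tested against each other. Replicates 4, 5 and 2 gave the 3 highest day 7 levels in EPB42 and in AQP1. In SLC4A1 and TMOD1 the probe was well above background in replicates 4 and 5 alone, at 7.11 and 5.76 in SLC4A1 and at 8.90 and 8.30 in TMOD1. In replicate 4, EPB42 went from 12.05 before irradiation through 7.55 and 5.06 to 11.24 at day 7, and in replicate 1 it went from 12.54 through 7.06 to 3.00 and 3.69, which were not well above background. The difference within an animal, day 7 minus pre-irradiation, ran from −7.84 to −1.77 on the log2 scale in AQP1. SLC4A1, EPB42, TMOD1 and AQP1 were each lower in 7 of 7 animals. For the interaction of sex and day 7, with 4 males and 3 females, limma called 0 of 7 genes and 0 of 27129 probes, with 0 of the 7 genes and 8.69% of probes at an unadjusted p under 0.05. The 7 differences, male minus female, ran from 0.08 in TMOD1 (SE 1.92) to 1.42 in ANK1 (SE 0.791), and that of EPB41 was 1.31 (SE 0.644, adjusted p = 0.588).

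**Figure D4:**
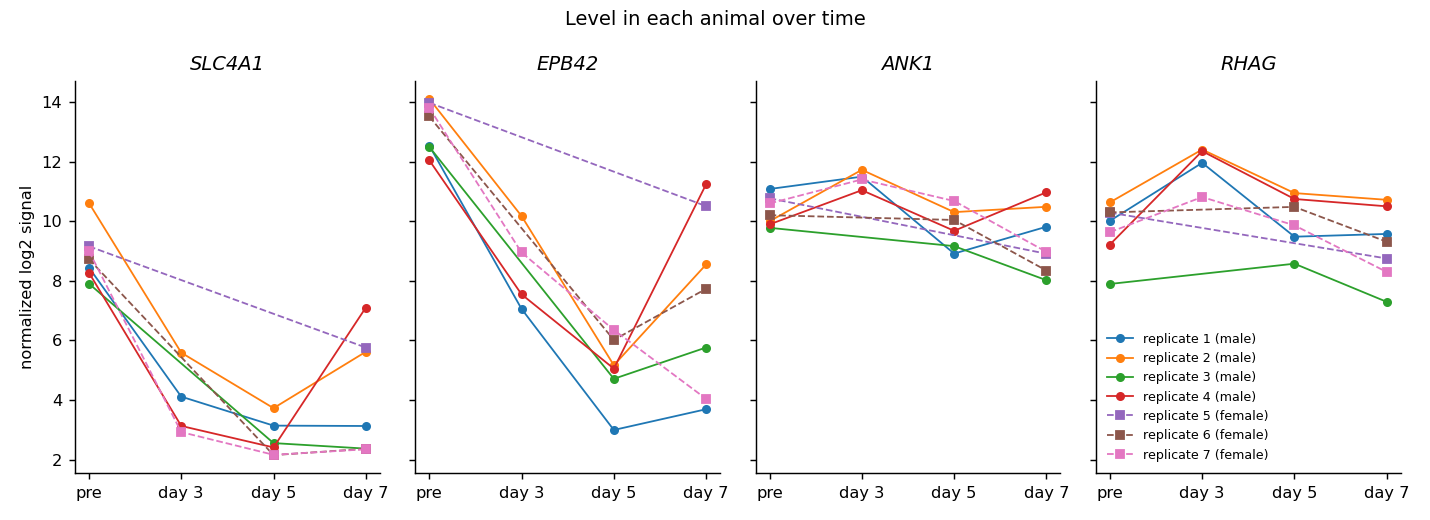
Normalized log2 signal (vertical axis) of SLC4A1, EPB42, ANK1 and RHAG in each animal before irradiation and at days 3, 5 and 7, males with solid and females with dashed lines. Lines join the arrays present and cross days without one. In EPB42 replicate 4 reached 11.24 at day 7 and replicate 1 stood at 3.69, not well above background, and in RHAG all 4 animals with a day 3 array were highest on that day.

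Across the 24 arrays, the deviations of 2 genes from their group means correlated with r from 0.403 (EPB42 with RHAG) to 0.858 (EPB42 with TMOD1), with a median of 0.606 over 21 pairs. The points share each array's scaling and cell content, so these are descriptions. Over the raw levels, which include the change with time, r was 0.963 for AQP1 with TMOD1 but 0.0531 for SLC4A1 with RHAG. The 10 genes whose levels ran most like the mean of the members, among 10535 ranked over 24 arrays, were SOX6 (r = 0.986), HBM (0.984), AHSP (0.976), TFR2 (0.975), RNF152, ACSL6, ICAM4, SLC25A39, FERD3L and TFDP2 (0.957). This mean follows mostly the members that fell. SOX6 was well above background on 0 of 6 day 5 and 2 of 7 day 7 arrays. SLC4A1 and TMOD1, part of the mean, were also dim there, so its r rests in part on dim signal. After removal of the group means the 10 genes had r from 0.827 to 0.958, on the same arrays over which they were picked.

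A further list of 48 genes of the red cell membrane and skeleton gave 39 genes tested. At day 3, 11 of the 39 were called lower and 5 higher, at day 5 14 and 3, and at day 7 15 and 2, with the share of all probes called higher at 5.43%, 7.15% and 3.6%. Their median log2 changes were −0.54, −0.58 and −0.46, closer to 0 than those of the members. Both lists were chosen with earlier results of these data known. 10 genes were called lower on all 3 days, among them ART4, BSG, DMTN, ERMAP, ICAM4, RHCE, SLC14A1, SLC16A1 and XK, and SLC29A1, a nucleoside transporter, was higher on all 3. ART4, DMTN, SLC14A1 and KEL passed the filter only through the pre-irradiation arrays, so they could hardly be called other than lower.

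Among the skeleton partners of the members, DMTN, the actin-bundling protein dematin, was at least 5.64-fold lower at day 3 and at least 6.04-fold lower at day 5 (limma adjusted p = 0.000137 and 2.39e-06). It also fell at day 7 (limma adjusted p = 0.000226), with signal well above background on 2 of 7 arrays. MPP1, the scaffold that joins protein 4.1 to glycophorin C, fell at both later days, with log2 changes of −1.91 at day 5 and −2.24 at day 7 (limma adjusted p = 0.000322 and 0.000317). Of the adducins, which cap the fast-growing end of actin, ADD2 was called lower at day 7 (−1.41, SE 0.318, limma adjusted p = 0.00457), and ADD1 had changes of 0.03, −0.16 and −0.05 that did not pass.

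Of the surface proteins, RHCE, an Rh antigen protein that travels with RHAG, fell at days 3, 5 and 7, with log2 changes of −3.61, −5.51 and −5.64 (limma adjusted p = 0.000106, 9.23e-07 and 0.000104). Its probe was well above background on 5 of 6 arrays at day 5 and 3 of 7 at day 7. The size at day 7 therefore rests largely on dim signal. RHCE has a near-identical relative whose message may add to its probe. ICAM4, the adhesion molecule carried by the Rh complex, gave −3.55, −5.58 and −4.93, and XK, the partner of Kell, gave −3.37, −5.19 and −3.48, all called. The XK probe was well above background on 4 of 6 arrays at day 5. KEL was at least 3.18-fold lower at day 3 (limma adjusted p = 0.00112), did not pass at day 5 (limma adjusted p = 0.0117) and fell at day 7 (limma adjusted p = 0.000831), with signal well above background on 1 of 6 and 2 of 7 arrays of the later days.

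Of the transporters, SLC16A1, which carries lactate, fell on each day (−3.70, −4.59 and −3.23, limma adjusted p = 0.000599, 1.28e-05 and 0.00102), and SLC2A1, the glucose carrier, fell at days 5 and 7 (limma adjusted p = 5.3e-05 and 0.00019) and did not pass at day 3 (limma adjusted p = 0.264). Its probe was well above background on 2 of 4, 1 of 6 and 1 of 7 arrays of these days, against 7 of 7 before, so sizes of change are not given. ERMAP, the Scianna blood group protein, gave −3.67, −5.12 and −3.72, all called. Its probe was well above background on 3 of 4, 3 of 6 and 4 of 7 arrays of these days, so the sizes rest in part on dim signal. STOM, the lipid raft protein stomatin, gave −0.19, −1.16 and −1.07, none past the test. At day 3, when RHAG and ANK1 gave the values above without passing the test, 7 of 7 tested platelet markers were called higher, with a mean level of 12.63 to 13.62 against 9.33 to 10.73 before irradiation. The part of platelets in these levels was not tested.

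**Figure D5:**
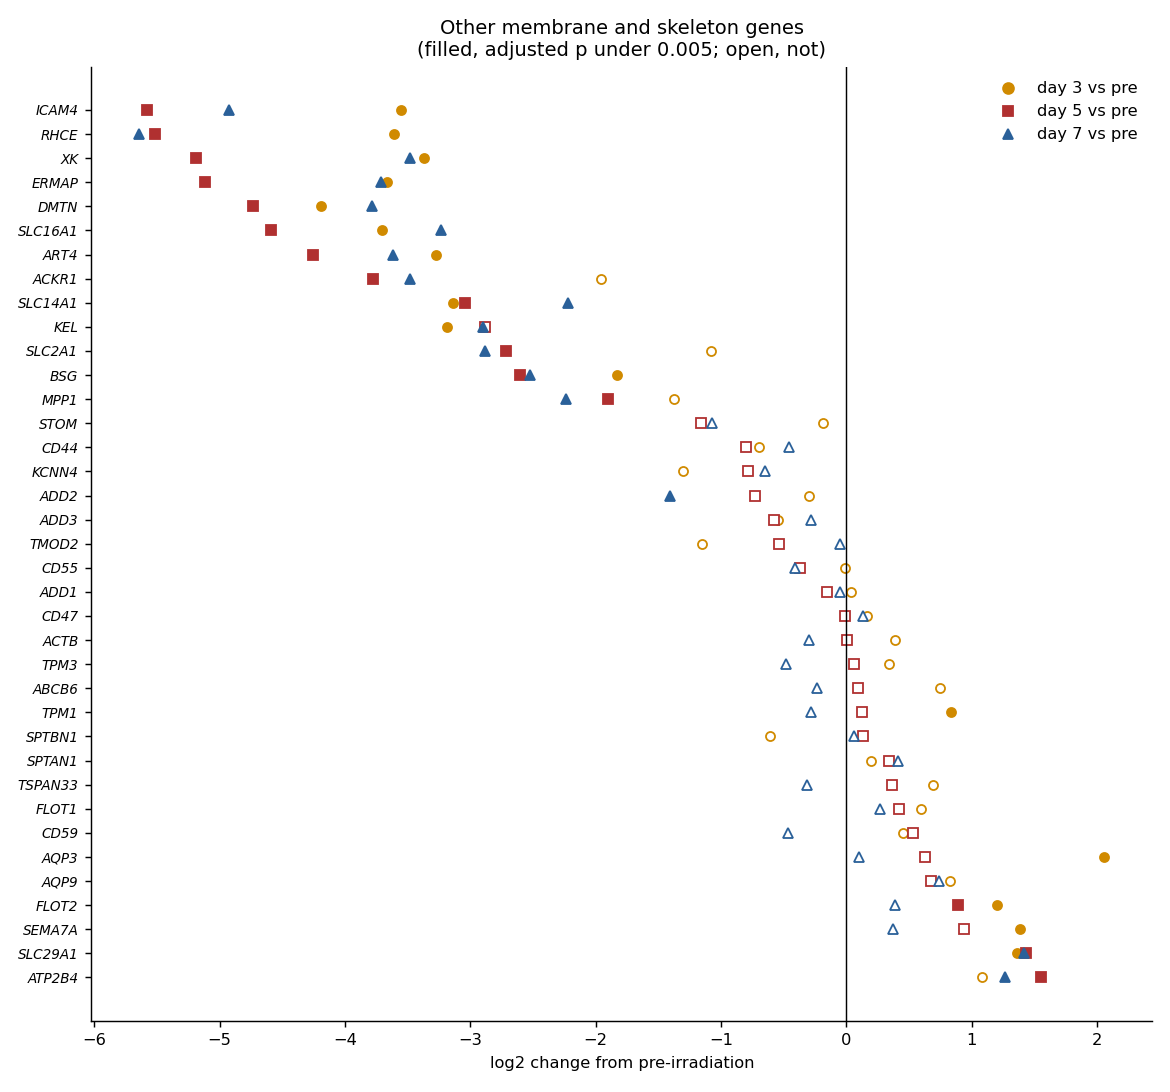
Log2 change from pre-irradiation (horizontal axis) of 37 of the other membrane and skeleton genes tested, ordered by the change at day 5, at days 3, 5 and 7. Filled marks passed an adjusted p under 0.005. ICAM4 and RHCE show the lowest day 5 values, −5.58 and −5.51, and ADD1 lies near 0 on each day.

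Other erythroid groups gave counts of the same kind. Of 7 globin chains and AHSP tested, 6, 7 and 3 were called lower at days 3, 5 and 7, with median log2 changes of −3.06, −4.92 and −3.22, after a globin depletion that also acts on their messages. Of 8 genes of heme synthesis and mitochondrial iron import, 4, 5 and 5 were lower, with medians of −1.30, −1.84 and −1.55. Of 9 erythroid transcription factors, 3, 4 and 5 were lower, with medians of −0.34, −1.09 and −1.84, and 1, 1 and 0 were higher. Those higher, named after their values were seen, were GFI1B at day 3 (1.72, limma adjusted p = 0.00231) and LMO2 at day 5 (1.09, limma adjusted p = 0.0015). Of the 6 B-cell markers, all were lower on every day, with medians of −3.23, −3.62 and −3.58, and the 5 T-cell markers had medians of −0.50, −0.31 and 0.24. Neutrophil markers were called higher in 2 of 6 at days 3 and 5, and monocyte markers in 1 of 5 on each day.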

How the data were processed

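The authors extracted RNA from blood stabilized in PAXgene tubes, depleted globin messages and hybridized it to one-colour Agilent rhesus arrays, for which the file headers name rheMac2 and the methods a human array. The deposited scanner files hold the processed signal, an intensity with local background subtracted; the submitters' notes name Feature Extraction 10.7. The authors' deposited series matrix holds log2 values normalized to the median array and was used as an alternative. Members and gene lists were chosen with earlier results of these data known.

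Here log2 of the processed signal was taken, flagged spots were left out, spots of a probe were averaged, and each array was shifted to the median array over the probes tested (shifts −2.03 to 0.87). The 27133 of 43603 probes with signal well above background on 4 or more arrays were tested with limma 3.58.1 in R 4.3.3, each pair of groups in its own fit, two-sided, with Benjamini-Hochberg adjustment over all of them. A gene is its brightest tested probe. Where the dimmer group had no array well above background, a lower bound of the fold was computed by raising each dim value to the faintest signal that counted as well above background on its array. The membrane genes named beside the members were the members' complex partners and the 3 largest called changes of each day. Some genes of this list are counted but not reported here by name. The script was tested on simulated data. Replicate numbers, one per animal, were checked as pairs: after subtraction of group means, arrays of one number had r between 0.134 and 0.414 for pre-irradiation with day 3, between 0.171 and 0.454 with day 5 and between 0.132 and 0.439 with day 7, so the numbers pair the arrays. The number of arrays limits the precision. Alternatives were other scalings and background corrections, filters, probe rules, blocks for animal, slide and session, thresholds and leaving out each replicate. Figures used Python 3.11.15 and matplotlib 3.10.9.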

Additional observations from a re-analysis of the deposited data

How the results depend on the processing

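Members called at an adjusted p under 0.005 numbered 4, 5 and 5 at days 3, 5 and 7 and 0 in each comparison between days. With normexp background correction 3 were called on each of these days, and 139, 239 and 315 probes over the array. At day 3, 0 were called with the slide or the scan session as a fixed block, and 7 at an adjusted p under 0.05. A single fit of the 4 groups with the slide as a fixed block, an alternative added once the data had been seen and so chosen after seeing the data, left 2 at day 3 and 0 at day 5 (5 at an unadjusted p under 0.05). Between days 3 and 7, 2 were called in one fit of all groups and at an adjusted p under 0.05. With the replicate block the counts were 4, 5 and 4, and 0 between days. Leaving out 1 replicate number at a time gave 4 to 5 at day 3, 5 at day 5, 4 to 5 at day 7 and 0 between days. RHAG at day 5 turned from 0.30 to −0.27 with the session as a fixed block and to −0.20 with the slide as a fixed block in one fit of all groups. SLC4A1, EPB42, TMOD1, AQP1 and EPB41 kept their direction under every alternative that gave a value (SLC4A1 gave none in the authors' normalized values or among probes well above background on at least 12 arrays), and the causes of these shifts were not tested. No gene was called for sex under any of the 4 scalings and background corrections tried. The other alternatives chosen after seeing the data, the slide as a random block and counting any called probe, gave 5, 5 and 5. The slide as a fixed block could not be fitted at day 5 alone, nor between days 5 and 7. TMOD1 and SLC4A1 were near background on many later arrays and EPB42 on some, so the order of those dim values cannot be read.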
